A study of Mus musculus with 2 samples.

Results

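The genes described here are the fibroblast growth factors (FGFs) of the mouse, their receptors, the Sprouty, Spred and Dusp6 feedback inhibitors and the Etv transcription factors that FGF signalling induces. They were taken from a list of 36 genes chosen by family and function, with all probe sets whose platform annotation names exactly 1 gene. Of the 36 genes, 35 had such a probe set, 82 probe sets in all, out of 18193 genes and 34945 single-gene probe sets on the array. The exception was Etv1, whose 3 probe sets each name another gene as well, so no value is given for it.

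Expression was measured on 2 Affymetrix arrays, 1 for each genotype. One RNA sample came from the cerebral cortex of a Sox11(+/+), wild-type, embryo and the other from that of a Sox11(-/-) littermate, both at E17.5, late in embryonic development, with no further treatment. Both parents were Sox11(+/-), and the genetic background was C57BL/6 and 129. The genotype field of the second sample reads "Sox -/-", and its title and description name Sox11. With 1 embryo in each group the spread between embryos is unknown, genes were not tested, and each difference is one between 2 libraries.

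The study asked how cortical expression differs when Sox11, a SoxC transcription factor of newborn neurons, is lost. Its brightest probe set gave 6582 in wild type against 3149 in the null library, a log2 difference of -1.04, which was the smallest of its 6 probe sets. The others ran to 3893 and 637 (-2.59), and signal remained with each. The sources used here do not place these probe sets relative to the deletion. The tissue label was checked against marker genes. Cortical neuron markers were present (Neurod6 3019 and 2723), but so were markers that cortex should lack. The 5 skeletal muscle markers summed to 72071 and 72098, and the 5 epidermal markers to 37667 and 20314, with 3 of these 5 beyond 1.5-fold lower in the null library. The libraries also differed in sex-linked RNA, with Xist at 17505 and 155, so genotype and sex cannot be told apart.

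FGFs are secreted proteins that bind receptor tyrosine kinases together with heparan sulfate. The activated receptor signals through the adaptor Frs2 and the Ras-ERK cascade, which switches on Etv transcription factors and, at the same time, inhibitors that damp the cascade. In the developing forebrain FGFs pattern the cortex from front to back and keep radial glia dividing, and outside the brain they act between epithelium and mesenchyme in limbs, teeth, glands, muscle and bone. A separate branch of the family, the FGF homologous factors, is not secreted and binds voltage-gated sodium channels inside neurons.

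Signals are given as deposited, on a linear scale, wild type first. Differences are log2, Sox11 null minus wild type, after the null array was shifted by 0.020 so that the median difference of all measured genes was 0. A probe set counted as measured when it reached the median of at least 1 array (177.5 and 177.4), and a gene is given by its brightest probe set unless another is named. Levels of different genes cannot be set against each other on such arrays, since each probe set has its own response.

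Of the 22 Fgf genes, 9 reached the array median with at least 1 probe set, and the same 9 did so on both arrays. That is 40.9% of the Fgf genes, against 64.1% of all genes that had a probe set at or above the median on both arrays and 68.1% on at least 1 array. The secreted ligands among them were Fgf1, Fgf4, Fgf7, Fgf9 and Fgf15, 5 of 18. All 4 FGF homologous factors, Fgf11, Fgf12, Fgf13 and Fgf14, were there too. The 9 genes had 23 probe sets, of which 13 reached the median on both arrays, 3 on 1 array and 7 on neither. Genes just above this line included Fgf4 (209 and 229) and Fgf15 (216 and 207), and genes just below it Fgf6 (146 and 157) and Fgf18 (144 and 143).

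**Figure D1:**
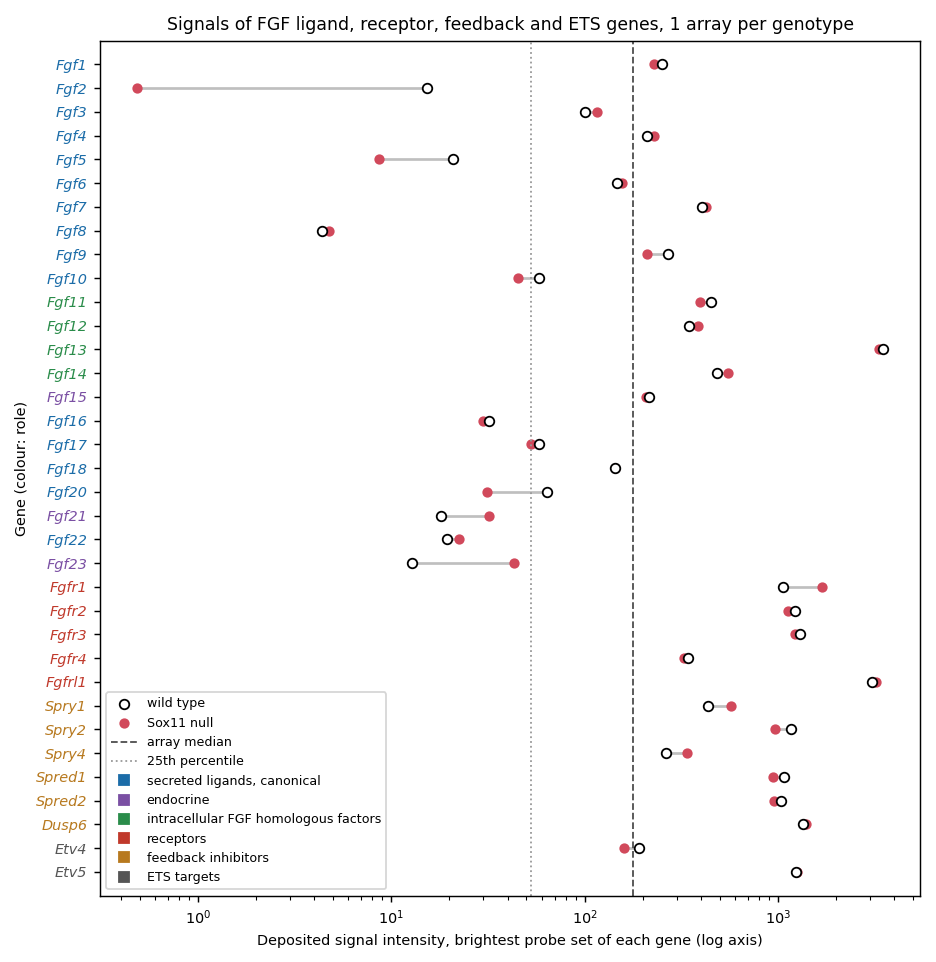
Deposited signal intensity (log axis) of the brightest probe set of each of the 35 genes, wild type as open circles and Sox11 null as filled circles, with the gene names coloured by role; dashed and dotted lines mark the array median and 25th percentile. Of the 22 Fgf genes 9 lie right of the median on both arrays, and all receptors and feedback inhibitors do; Fgfr1 is the member with the widest gap among those right of the median.

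Fgf7, the keratinocyte growth factor that mesenchyme sends to epithelium, was at 403 and 427, a log2 difference of 0.10. Its other probe set gave 178, just above the median, and 284, a log2 difference of 0.69. Both probe sets were higher in the null library, and they differed in whether the gene lay within 1.5-fold. Fgf9, a ligand made by neurons and by several epithelia, was at 271 and 211 (-0.34) with one probe set and at 135 and 183 (0.46) with the other. The 2 probe sets thus gave opposite directions for it, but the dimmer one reached the median on the null array only, where it was higher.

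Fgf1, which binds all FGF receptors, was at 253 and 228 (-0.13). A second probe set of it gave 165 and 204 (0.33) and reached the median on the null array only. Another, below the median on both arrays, gave 65.2 and 92.1. Fgf4, a ligand of the early embryo and the limb bud, was at 209 and 229 (0.15). Its other 3 probe sets lay below the median, between 10.2 and 94.4 (wild type) and between 16.6 and 32.7 (null), so its place above the median rests on 1 of 4 probe sets. Fgf15, the mouse counterpart of human FGF19, which acts in the embryonic forebrain and as a hormone of the gut, was at 216 and 207 with its single probe set (-0.042). None of the 5 measured secreted ligands was beyond 1.5-fold by its brightest probe set, and their median was -0.042.

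The other 13 secreted ligands stayed below the median with all of their 18 probe sets, and the highest signals among these were 146 and 157, both of Fgf6, a ligand linked to muscle regeneration. Fgf3, a ligand of the inner ear and tooth, was at 101 and 116. Fgf18, which acts on bone and cartilage, was at 144 and 143. Fgf10, a mesenchymal ligand of limb and lung buds, was at 57.8 and 45.3, Fgf17 at 58.3 and 53.0, and Fgf20 at 63.8 and 31.4. In 7 genes every probe set lay at or below the 25th percentile (52.9 and 52.5) on both arrays, where values have no order. These were Fgf2, Fgf5, Fgf8, Fgf16, Fgf21, Fgf22 and Fgf23. They include Fgf8, the organiser of the front of the telencephalon, and Fgf2, a mitogen of cortical progenitors, each with 1 probe set of its own (Fgf8 4.41 and 4.78, Fgf2 15.4 and 0.486). Without detection calls, a low signal does not show that a gene was silent, and no fold is given for these genes.

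The FGF homologous factors were all above the median, and their median difference was 0.063. Fgf13, which binds sodium channels and microtubules in cortical neurons, was at 3497 and 3319 (-0.055), but its other probe set gave 332 and 508 (0.63). One probe set put it near 0 and the other beyond 1.5-fold. Fgf13 is X-linked, and the sexes of the embryos differed as given above. The part of this in its values, as in those of the other genes given here, was not tested. Fgf12 was at 347 and 388 (0.18), with 212 and 293 (0.49) and 231 and 164 (-0.48) by its other measured probe sets. The last of these reached the median on the wild-type array only, where it was higher. Fgf14, mutated in a hereditary ataxia in people, was at 485 and 555 (0.21) by one probe set and at 553 and 449 (-0.28) by another. Fgf11 was at 451 and 394 (-0.18), and its second probe set lay far below the 25th percentile on both arrays. By its brightest probe set each of the 4 genes was within 1.5-fold, and 3 of them had measured probe sets on both sides of 0. For Fgf12 the lower side rests on the probe set that reached the median in wild type only.

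The receptors gave the member with the largest difference by brightest probe set, Fgfr1, and the widest disagreement between probe sets. Fgfr1, the main FGF receptor of mesenchyme and of neural progenitors, was at 1062 (wild type) and 1693 (null) by 1424050_s_at, 1.62-fold higher (log2 difference 0.69). Probe set 1425911_a_at gave 433 and 1029, 2.41-fold higher (1.27). By contrast 1436551_at gave 402 and 320, a difference in the other direction (-0.31). The mean over the 3 probe sets was 0.55 ± 0.80 (SD, 3 probe sets that share their RNA), which is within 1.5-fold (0.58 on the log2 scale). With probe sets of the plain _at type alone, which also changes the centring, the gene was at -0.33. The range of 1.58 between its lowest and highest probe set was matched or passed by 3.08% of the 1233 genes with 3 measured probe sets. For the other receptors this share was larger, 8.76% for Fgfr2, 20.0% for Fgfr3, 43.8% for Fgfrl1 and 78.4% for Fgfr4. Each share is over genes with the same number of measured probe sets as the receptor.

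Fgfr2, which in its splice forms serves epithelium or mesenchyme, was at 1221 and 1127 by 1433489_s_at (-0.095) and at 423 and 707 by 1420847_a_at (0.76, 1.69-fold higher). Another probe set, 1443211_at, lay below the median at 75.2 and 80.5. Fgfr3, a receptor of growth plate cartilage and of cortical progenitors, was at 1300 and 1232 by 1421841_at (-0.057) and at 180 and 261 by 1425796_a_at (0.55). The brighter probe set of each of these genes lay near 0, and the dimmer one was higher in the null library.

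Fgfr4, which takes part in muscle differentiation and in the liver response to endocrine FGFs, differed in the other direction or little. It was at 343 and 328 by 1418596_at (-0.043), at 286 and 223 by 1427846_x_at (-0.34) and at 246 and 206 by 1427777_x_at (-0.24). Its remaining probe sets lay below the median, at 109 and 124 for 1427776_a_at and at 63.9 and 7.81 for 1427845_at. Fgfrl1, a receptor without a kinase domain, was at 3070 and 3194 by 1447878_s_at (0.077) and at 519 and 691 by 1451912_a_at (0.43). Fgfr4 was the receptor whose measured probe sets differed least, with a range of 0.30.

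**Figure D2:**
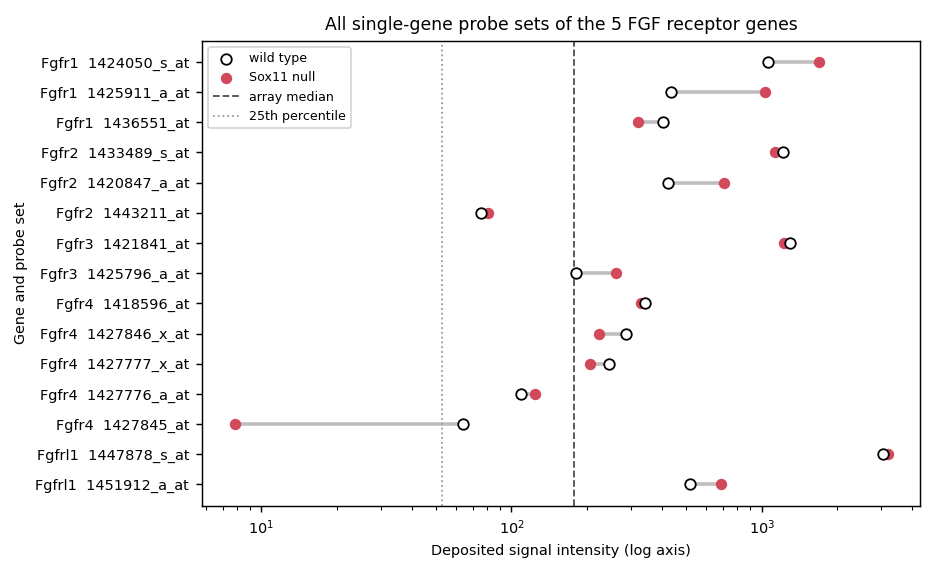
Deposited signal intensity (log axis) of all single-gene probe sets of Fgfr1, Fgfr2, Fgfr3, Fgfr4 and Fgfrl1, with wild type as open and Sox11 null as filled circles. The null library is right of wild type with 2 of 3 Fgfr1 probe sets and left of it with 1436551_at, and the gap in Fgfr2 and Fgfr3 appears with the _a_at probe set and not with the brightest one.

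Sorted by type, the receptor probe sets fell into a pattern, which was noticed after the values were seen. The suffix _a_at marks probes shared by several transcripts of 1 gene, _s_at probes that may fit transcripts of several genes, and _x_at probes with partial matches elsewhere. All 4 measured _a_at probe sets of receptors were above 0 (Fgfr1 1.27, Fgfr2 0.76, Fgfr3 0.55, Fgfrl1 0.43). Of all 2998 measured _a_at probe sets 58.7% were above 0, with a median of 0.067. None of the 4 was the brightest probe set of its gene. Each lay above the mean of its gene's other measured probe sets, by 0.35 to 1.08. The only other measured _a_at probe set of the list, that of Fgf12, lay above its gene's others by 0.63. Over all 1487 genes with both kinds the _a_at probe sets were the higher in 61.3%, with a median gap of 0.087. The 3 measured _x_at probe sets, of Fgfr4 and Spred1, were below 0, and that of Spred1 reached the median in wild type only. Of all 1380 measured _x_at probe sets 32.5% were above 0, with a median of -0.11. The 3′ to 5′ signal ratio of the beta-actin control, a measure of RNA or cRNA integrity, was 1.78 (wild type) and 1.16 (null), with 0.922 and 0.816 for Gapdh. The part of probe position, transcript form, probe set brightness and RNA integrity in these differences was not tested.

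Over the 5 receptors 3 had measured probe sets on both sides of 0, and 3 had a range of at least 1.5-fold. Over all 16 members with several measured probe sets the counts were 9 and 9. In Fgf1, Fgf9 and Fgf12, 1 side of 0 was held only by a probe set that reached the median on 1 array. The shares of the array below were counted with the same filter. Among 5155 such genes of the array, 56.8% had probe sets on both sides of 0 and 33% a range of at least 1.5-fold. The pooled SD between probe sets of 1 gene was 0.53 for the receptors (12 probe sets), 0.45 for the members (41) and 0.39 for all genes (13427). Within single receptors the SD was 0.80 (Fgfr1), 0.60 (Fgfr2), 0.43 (Fgfr3), 0.25 (Fgfrl1) and 0.15 (Fgfr4). Those of Fgfrl1 and Fgfr4 lay below the value for all genes. Across the array the dimmer probe sets of a gene averaged higher than its brightest in 62.3% of genes, and in 11 of the 16 members (68.8%). The members' share with probe sets on both sides of 0 (56.2%) was near that of the array. Their share with a range of at least 1.5-fold (56.2%) lay above it, and their median range was 0.60 against 0.41.

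Endothelial markers were higher in the null library as well. The 4 listed had differences from 0.56 to 0.68, and 3 of them were beyond 1.5-fold higher. The signals of the 4 summed to 1834 and 2738. The mesenchymal and meningeal markers summed to 47755 and 49597, with 1 of 5 beyond 1.5-fold higher. The part of these cells in the Fgfr1 values was not tested. In such bulk RNA more cells of a type and more RNA per cell cannot be told apart.

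The feedback inhibitors lay within 1.5-fold by their brightest probe sets, all 6 of them, with a median of -0.014. Dusp6, the phosphatase that inactivates ERK and a usual readout of FGF activity, was at 1352 and 1402 with its single probe set (0.072). Spry2, a Sprouty protein that blocks Ras-ERK signalling below the receptor, was at 1172 and 960 (-0.27), and its second probe set agreed at 275 and 221 (-0.30). Spry1 was at 433 and 572 (0.42). Spry4 was at 264 and 338 (0.38), with 181 and 257 (0.53) by its other measured probe set. Spry1 and Spry4 were thus higher and Spry2 lower in the null library, each by less than 1.5-fold.

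Spred1, a Sprouty-related protein that brings neurofibromin to Ras, had 7 measured probe sets. The brightest gave 1073 and 945 (-0.16). The others ran from 213 and 115 with 1443652_x_at (-0.87) to 219 and 326 with 1423162_s_at (0.59), beyond 1.5-fold either way. However, 1443652_x_at reached the median on the wild-type array only, so it counted as measured through the array where it was higher. This range of 1.46 was matched or passed by 31.8% of the 22 genes with 7 measured probe sets. Spred2, which acts in the same way, was at 1036 and 953 (-0.10), and at 502 and 468 (-0.080) by its other measured probe set. These 2 probe sets agreed, as did those of Spry2 and Spry4.

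Of the ETS transcription factors that FGF signalling induces, Etv4 was at 191 and 159 (-0.24) and near the array median. Etv5, a target of ERK signalling in radial glia, was at 1240 and 1252 (0.033) by its brightest probe set. Its other probe sets gave 375 and 492 (0.41) and 203 and 325 (0.70). All 3 were above 0, and the spread between them took in the 1.5-fold line.

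**Figure D3:**
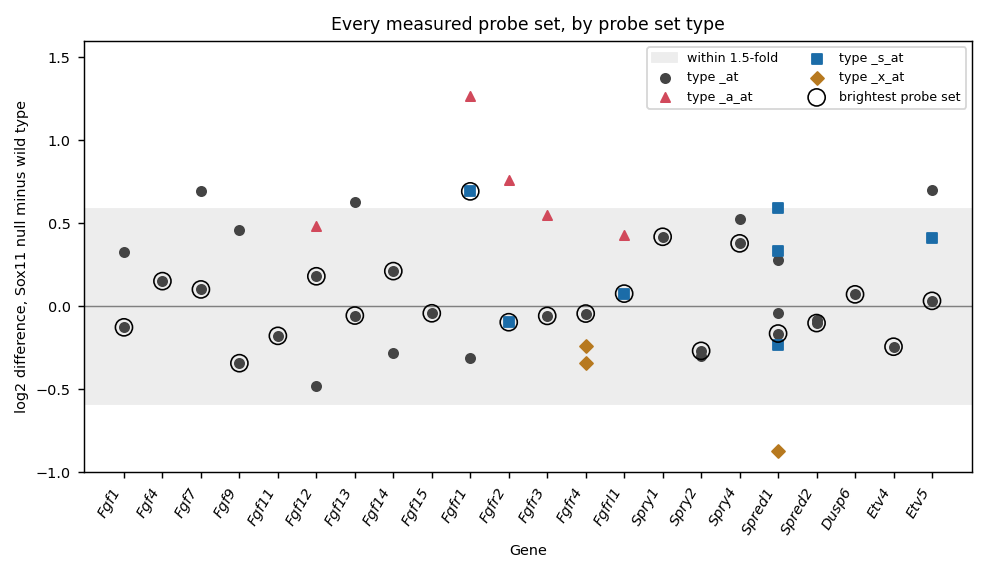
log2 difference (Sox11 null minus wild type) of the 47 measured probe sets of 22 genes, marked by probe set type, with the brightest of each gene ringed and the range within 1.5-fold shaded. Of these, 7 lie above the shaded range and 1 below it; the ringed points lie within it in all genes but Fgfr1.

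Promoter windows were searched for the words that Sox and ETS proteins recognise, to show what stands at the start sites of the members. The windows, from RefSeq on build GRCm38.p6, run from 250 bases before to 50 bases after a start site, and 36 windows of 27 members were matched by symbol. The words were ACAAAG and ACAATG, cores of Sox sites, and GGAAGT, a core of ETS sites, each on both strands. ACAAAG stood in 7 of the 36 windows (19.4%) and in 18.7% of all 32851 windows of that length. ACAATG stood in 2 (5.56%, against 12.6%) and GGAAGT in 5 (13.9%, against 23.8%). A Sox word and the ETS word stood together in 4 windows (11.1%, against 6.60%), those of Etv5, Spred2, Fgfrl1 and Fgf13. A match is a description of the letters and not evidence of a site in use.

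The windows of the feedback gene, the ETS gene and the receptor among these 4 are printed 5′ to 3′ on the strand of the gene, with the words in capitals. They show where the words lie in genes whose brightest probe sets were near 0 (Etv5 0.033, Spred2 -0.10, Fgfrl1 0.077).
Etv5 (chr16:22438319-22438618, minus strand): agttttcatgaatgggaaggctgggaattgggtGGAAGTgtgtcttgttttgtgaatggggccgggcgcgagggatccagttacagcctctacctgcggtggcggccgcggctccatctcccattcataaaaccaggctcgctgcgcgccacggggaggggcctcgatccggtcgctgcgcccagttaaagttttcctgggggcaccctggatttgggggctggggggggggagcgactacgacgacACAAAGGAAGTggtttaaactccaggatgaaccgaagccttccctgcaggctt
Spred2 (chr11:19924192-19924491, plus strand): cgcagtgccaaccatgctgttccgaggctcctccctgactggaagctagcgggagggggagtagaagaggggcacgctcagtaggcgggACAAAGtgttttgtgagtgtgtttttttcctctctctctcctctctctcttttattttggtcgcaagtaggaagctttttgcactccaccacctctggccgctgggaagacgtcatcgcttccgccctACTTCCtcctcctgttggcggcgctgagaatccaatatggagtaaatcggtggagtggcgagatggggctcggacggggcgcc
Fgfrl1 (chr5:108693979-108694278, plus strand): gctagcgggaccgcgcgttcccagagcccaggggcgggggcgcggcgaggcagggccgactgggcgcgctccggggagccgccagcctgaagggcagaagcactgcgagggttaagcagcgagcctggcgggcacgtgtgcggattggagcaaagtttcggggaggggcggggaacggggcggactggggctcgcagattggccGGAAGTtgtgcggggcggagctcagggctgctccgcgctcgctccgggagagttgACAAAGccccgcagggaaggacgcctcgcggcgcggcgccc
In Etv5 the ACAAAG begins 3 bases before the start site and runs into a GGAAGT that shares its last base, and another GGAAGT begins 217 bases before it. In Spred2 the capitals ending in CC are GGAAGT on the other strand, 33 bases before the start site, and ACAAAG begins 161 bases before it. In Fgfrl1 GGAAGT begins 46 bases before the start site and ACAAAG at base 10 after it.

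Counted over the list, 22 of the 35 genes were measured by their brightest probe set, and 13, all of them secreted ligands, were not. Of the 22, 1 (Fgfr1) was beyond 1.5-fold higher and 0 were lower, and 0 were beyond 2-fold. Of all 12390 measured genes 3.07% were beyond 1.5-fold higher, 3.24% lower, 6.30% either way and 1.56% beyond 2-fold either way. The median of the 22 genes was -0.042, with 10 above and 12 below 0, where the median of all measured genes was set to 0. The count of 1 became 0 when each gene's probe sets were averaged, and with plain _at probe sets alone, as given for Fgfr1.

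By probe set, 7 of 47 measured ones (14.9%) were beyond 1.5-fold higher and 1 (2.13%) was lower, where 7.26% and 3.48% of the 20669 measured probe sets of the array were, or 10.7% either way. The 7 belonged to 6 genes, Fgfr1 with 2 of them, Fgfr2, Fgf7, Fgf13, Etv5 and Spred1. In 5 of these 6 genes the brightest probe set lay within 1.5-fold. The 1 lower probe set was also of Spred1, and it reached the median on the wild-type array only.

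Other genes of the pathway were within 1.5-fold by their brightest probe sets. From a list of 54, 46 had a single-gene probe set, 41 were measured, and 0 were beyond 1.5-fold in either direction, beside the 6.30% of all measured genes. By probe set 6 of 85 measured ones (7.06%) were beyond 1.5-fold higher, those of Sdc1, Cdh2, Sdc3, Gpc4, L1cam and Gab1, and 1 (1.18%), of Plcg1, was lower, beside 7.26% and 3.48% of the array. The median of the 41 genes was -0.075, with 16 above and 25 below 0. The largest differences were those of Fgfbp1, a carrier that frees FGFs from the matrix and is made by epidermis, at 748 and 548 (-0.43), of Nras, a Ras protein, at 2000 and 1481 (-0.41), and of Araf, a Raf kinase, at 1596 and 1964 (0.32). The other Nras probe sets went the other way, at 1630 and 1759 (0.13) and at 437 and 503 (0.22). Those of Araf were above 0 like the brightest, from 0.030 to 0.48. Of the 5 epidermal markers 3 were beyond 1.5-fold lower, with the list running from -1.64 to 0.11, while Fgfbp1 was lower within 1.5-fold. The part of epidermal RNA in the Fgfbp1 value was not tested. By group, 8 measured co-receptors and binding proteins had a median of -0.11, 13 genes of heparan sulfate -0.11, 13 adaptors and kinases -0.085 and 7 further feedback and response genes -0.017. Among the last, Il17rd, an inhibitor of FGF receptor signalling, was at 376 and 390 and Dusp4, another ERK phosphatase, at 899 and 918. Spred3, at 201 and 196, was also near its wild-type value, as was Egr1 (-0.050). The rest of the 7 differed more, with Cbl at -0.25, Ccnd1 at -0.24 and Myc at 0.17.

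**Figure D4:**
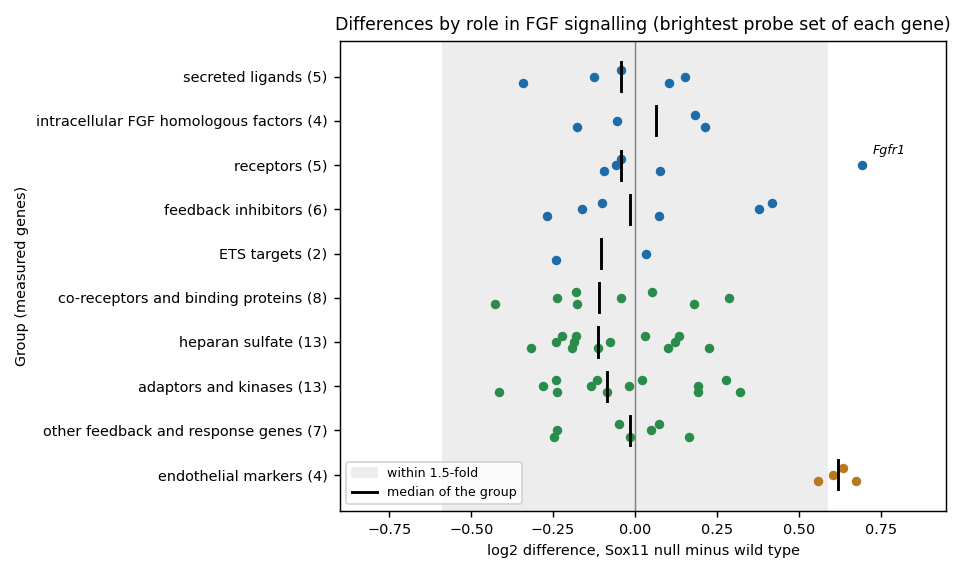
log2 difference (Sox11 null minus wild type) of each measured gene by its brightest probe set, grouped by role, with group medians as bars; members in blue, other pathway genes in green and endothelial markers in brown. All members but Fgfr1 (0.69) and all 41 other pathway genes lie in the shaded range within 1.5-fold, and the 4 endothelial markers lie between 0.56 and 0.68.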

How the data were processed

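Gene expression was measured with 1 array for each genotype. The authors deposited linear signal intensities, made with Affymetrix Expression Console per the submitters' processing notes. The sources used here give neither its algorithm nor its version or filters. Both arrays had a mean of 500.002 after 2% was trimmed at each end. The table held 45101 probe sets, of which 64 controls were left out; 34945 name 1 gene, 932 several and 9160 are unnamed here. A RefSeq table (GRCm38.p6) gave current symbols for 34741 of the single-gene probe sets, and 204 kept theirs.

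Signals were taken to log2 (Python 3.11.15, pandas 2.3.3, numpy 2.4.6), the null array was shifted, and values under the 25th percentile of an array were raised to it. A gene was represented by its single-gene probe set of highest mean log2 signal, which left 18193 genes, 12390 of them measured. Counts at 1.5-fold stand in for tests, and the number of arrays limits the precision. The steps were tested on simulated data. Members, lists and the rule for named genes (every member, all receptor probe sets, and pathway genes beyond 1.5-fold or else the 3 largest differences) were chosen with earlier results of these data known. Some pathway genes are named beyond this rule, among them the 7 measured further feedback and response genes. Alternatives covered centring, floor, filter, probe set choice and type.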

Additional observations from a re-analysis of the deposited data

How the results depend on the processing

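The count of members beyond 1.5-fold higher was 1 (Fgfr1) without centring, with quantile normalization, with a loess trend removed, with no floor or a floor at the array median, with no filter or one at the 75th percentile, and with the median required on both arrays. It was 0 with a gene's probe sets averaged (Fgfr1 0.55) and 0 with plain _at probe sets alone (Fgfr1 reversed to -0.33); both follow from which Fgfr1 probe sets are used. The count beyond 1.5-fold lower was 0 in each. The median of the members ran from -0.068 to 0.068, with positive values under averaging (0.068) and with no filter (0.010), so its sign is not settled. With probe sets averaged 7 of 22 members changed sign. Among these were Fgf9 (-0.34 to 0.058), Fgf1 (-0.13 to 0.24), Fgf4 (0.15 to -0.16) and Fgf13 (-0.055 to 0.29). The others were Fgf14 (0.21 to -0.0045), Fgfr2 (-0.095 to 0.26) and Fgfr3 (-0.057 to 0.25). The averages also took in unmeasured probe sets, with values under the 25th percentile raised to it. Fgf4 had 1 measured probe set (0.15), so its change of sign rests on signals below the median. Fgfr2 also changed sign with plain _at probe sets, and Etv5 with quantile normalization. The Fgfr3 probe set 1425796_a_at went from 0.55 to 0.59, past 1.5-fold, with the loess trend removed. The pathway count became 1 higher with no filter, through the dim gene Dusp5 (37.9 and 98.3). Of the 22 Fgf genes 9 reached the array median, 6 with probe sets averaged, 1 (Fgf13) reached the 75th percentile and 15 the 25th. The pooled SD between receptor probe sets ran from 0.52 to 0.53. No paired analysis was possible because each genotype has 1 sample.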
